A study of Mus musculus with 18 samples.

Results

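Retinoic acid metabolism and response were followed through 9 genes (Stra6, Dhrs3, Aldh1a2, Crabp1, Crabp2, Rarg, Rarb, Cyp26a1 and Cyp26b1) in mouse stem cells kept in hypoxia. The 9 genes were picked as a family by name because Cyp26a1, the enzyme that removes retinoic acid, was lower in trophoblast stem cells on hypoxia day 7, so that decrease is given as a description without a test. Of 14804 genes in at least 1 of the 3 deposited tables, 7 of the 9 were listed for embryonic stem cells, 8 for trophoblast stem cells and 5 for extra-embryonic endoderm cells, and 4 were listed in all 3. Cyp26a1 was 9.61-fold lower in trophoblast stem cells on day 7 than in normoxia, whereas in endoderm cells it stayed among the 102 highest of 11538 genes in every library. Rarg, Stra6 and Dhrs3 each held ranges that did not overlap between the 3 cell types. Rarg was highest in embryonic stem cells, and Stra6 and Dhrs3 in endoderm cells. How many of all genes separate in this way was not counted. Apart from Cyp26a1 in trophoblast stem cells on day 7, the value that chose the family and was not tested, none of the 9 passed the test in a comparison of oxygen conditions.

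The study grew 3 mouse stem cell types in normoxia or hypoxia. They were the wild-type E14 line of embryonic stem cells (ESCs, a model of the epiblast), trophoblast stem cells (TSCs, a model of the trophectoderm) and extra-embryonic endoderm stem cells (XEN cells, a model of the primitive endoderm). For each type, RNA was sequenced from cells in normoxia, on day 2 and on day 7 of hypoxia, each in 2 biological replicates, which makes 18 libraries. ESCs grew without feeders in medium with serum and leukemia inhibitory factor, TSCs on feeder fibroblasts with FGF4 and heparin, and XEN cells on gelatin in medium partly conditioned by fibroblasts. The labels name no transgene or deletion, and do not say whether replicates with the same number were grown together. Each cell type had a single normoxia group for both hypoxia days, and its labels give no day. A difference between normoxia and a hypoxia day, or between the days, therefore cannot be told apart from time in culture. All the media held serum, in which retinol can be present.

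Retinol enters a cell through the membrane receptor STRA6 and is oxidized first to retinal, a step that DHRS3 runs in reverse, and then by ALDH1A2 to retinoic acid. The binding proteins CRABP1 and CRABP2 carry retinoic acid inside the cell, and the nuclear receptors RARG and RARB bind it, with an RXR partner, on DNA. CYP26A1 and CYP26B1 oxidize retinoic acid and so end the signal. Cyp26a1 and Rarb are textbook direct targets of the receptors, and retinoic acid drives many pluripotent cells to differentiate.

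The promoters of Cyp26a1 and Rarb are shown because, of the 8 genes with an entry in the promoter table (all but Crabp2), these alone held the direct repeat that retinoic acid receptors are known to bind. The windows are the 250 bases before a RefSeq start (build GRCm38.p6), written 5′ to 3′ on the gene's strand, and capitals mark the repeat. The Cyp26a1 window lies at chr19:37697558-37697807 on the plus strand, and the Rarb window at chr14:16575477-16575726 on the minus strand.
Cyp26a1: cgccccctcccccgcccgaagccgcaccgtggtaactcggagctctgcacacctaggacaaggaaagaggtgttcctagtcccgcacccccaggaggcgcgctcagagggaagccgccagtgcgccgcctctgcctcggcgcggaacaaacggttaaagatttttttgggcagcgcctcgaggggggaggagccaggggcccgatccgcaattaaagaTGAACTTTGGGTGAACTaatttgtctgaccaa
Rarb: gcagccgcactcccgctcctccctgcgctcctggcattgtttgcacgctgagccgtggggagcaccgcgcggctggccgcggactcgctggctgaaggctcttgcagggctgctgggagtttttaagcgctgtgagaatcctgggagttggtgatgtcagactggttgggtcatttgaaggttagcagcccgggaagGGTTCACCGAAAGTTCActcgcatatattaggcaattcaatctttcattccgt
The repeat was searched on both strands as AGGTCA or AGTTCA or GGGTCA or GGTTCA followed, after 5 bases, by any of these again. In Cyp26a1 it was read on the opposite strand and ran from 32 to 16 bases before the start, and in Rarb it was read on the gene's strand from 53 to 37 bases before the start. It was found in 29 of 32851 promoter windows of the same length (0.0883%), in 2 of the 14 windows listed for 8 of the 9 genes, and in none of the 70 windows of the wider lists of pathway genes. Of the core letters that hypoxia-inducible factors bind, only the form ACGTG was searched, on either strand. It was absent from both printed windows. ACGTG was present in 2 of the 14 windows (a Rarg window and the Aldh1a2 window) and in 16.6% of all windows. The other form, GCGTG, was not counted, and the Rarb window holds it on the opposite strand (cacgc). These are matches of letters and show no binding.

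Levels are given as TPM (transcripts per 1000000 transcripts), recomputed from the deposited values per kilobase of summed exons, because the deposited TPM had been scaled by the whole length of the gene with its introns. Read numbers recovered from the tables ranged from 35592641 to 75204029 per library. A gene was called changed when its fold change exceeded 1.5 and its adjusted p (limma, Benjamini-Hochberg over all genes of the cell type) was 0.1 or less. Log2 fold changes are differences of log2(TPM + 0.5), which understate changes of genes near or under 0.5 TPM, and are given with the limma standard error (SE). Every listed ESC and XEN marker was in its own table (6 of 6 and 8 of 8), as was every TSC marker (9 of 9). In TSCs all 12 fibroblast markers were also listed, with a summed level from 319 to 2300 TPM, against 7 of 12 and 22.9 to 38.2 TPM in ESCs and 3 of 12 and 7.64 to 35.2 TPM in XEN cells. With 2 libraries a group, an exact two-sided permutation test of a single gene could not go below p = 0.333, so only the limma fits are given. The adjusted p-values judge a difference against the spread between biological replicates, estimated over all 6 libraries of a cell type.

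The first question was where each gene is expressed. The 3 cell types were normalized separately, so levels across them are described without a test, and in bulk RNA fewer expressing cells and less RNA per cell cannot be told apart. Stra6 (chr9:58063788-58153996, plus strand, mm10 with GENCODE M21, as for the positions that follow), the retinol receptor, had a median of 188 TPM over the 6 XEN libraries, 4.57 TPM in TSCs and 0.244 TPM in ESCs. Its lowest XEN library (140 TPM) was 16.7-fold above the highest TSC library (8.42 TPM), and its lowest TSC library (0.786 TPM) was above the highest ESC library (0.368 TPM). In ESCs these levels rested on 6 to 29 reads per library. Dhrs3 (chr4:144892827-144928209, plus strand), which returns retinal to retinol, followed the same order without overlap, from 9.44 to 13.7 TPM in XEN cells, 2.32 to 5.97 TPM in TSCs and 0.538 to 1.40 TPM in ESCs. Aldh1a2 (chr9:71215789-71296243, plus strand), which makes retinoic acid, was low in ESCs (3.45 to 4.99 TPM) and TSCs (2.23 to 4.09 TPM), whose ranges overlapped, and was not in the XEN table.

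Crabp1 (chr9:54764748-54773110, plus strand), which holds retinoic acid in the cytoplasm, ranged from 35.5 to 51.0 TPM in ESCs and from 33.2 to 163 TPM in TSCs, with overlap. Crabp2 (chr3:87948666-87953376, plus strand), which hands retinoic acid to the receptors, ranged from 16.2 to 34.2 TPM in ESCs and from 2.75 to 11 TPM in TSCs, without overlap. Neither binding protein was listed in XEN cells. Rarg (chr15:102234938-102257517, minus strand), a retinoic acid receptor, was highest in ESCs, where its 6 libraries held 276 to 379 TPM and 13270 to 25089 reads. It ranged from 35.5 to 47.4 TPM in TSCs and from 2.76 to 6.32 TPM in XEN cells, and no range overlapped another. Rarb (chr14:16430839-16819156, minus strand), a receptor that retinoic acid itself induces, was listed in XEN cells only, at 1.79 to 4.74 TPM. Its values were not whole multiples of the worth of 1 read, so its level is uncertain by a factor that is the same in all 6 libraries.

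Of the degrading enzymes, Cyp26a1 had the higher level in every TSC library. The gene (chr19:37697798-37701536, plus strand) ranged from 1084 to 2019 TPM in XEN cells (25889 to 66887 reads), from 4.70 to 75.5 TPM in TSCs (114 to 1876 reads) and from 1.1 to 4.93 TPM in ESCs (34 to 140 reads). In XEN cells its rank by TPM lay between 40 and 102 of 11538 genes. The XEN range stood 14.4-fold above the highest TSC library, whereas the TSC and ESC ranges overlapped only through the second day 7 TSC library. Cyp26b1 (chr6:84571414-84593908, minus strand) was listed in TSCs only, at 1.18 to 1.96 TPM (77 to 128 reads). Cyp26c1, the family's remaining member and no part of the 9, starts upstream of Cyp26a1 on the same strand of chromosome 19, with 4399 bp between the genes. It ranged from 21.4 to 33.8 TPM in XEN cells and from 0.187 to 1.92 TPM in TSCs, so both neighbours were highest in XEN cells.

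**Figure D1:**
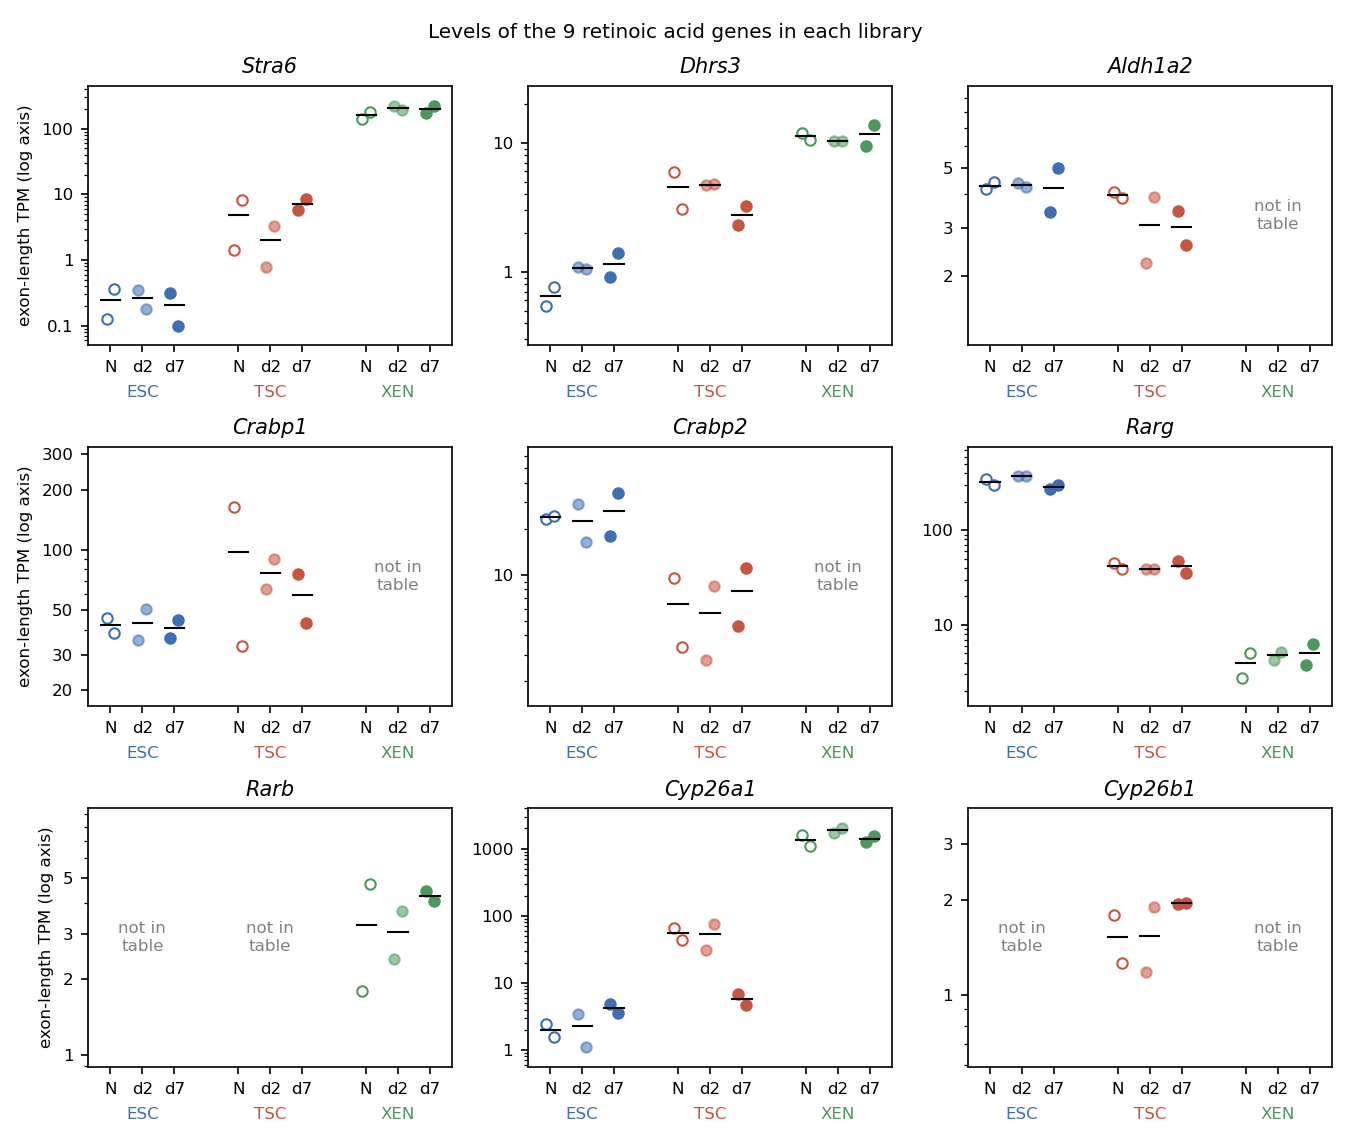
Exon-length TPM on a log axis for each of the 9 genes, with N, d2 and d7 for normoxia, hypoxia day 2 and day 7. Points are libraries (2 per group), bars are group means, and each panel has its own axis. Stra6, Dhrs3 and Cyp26a1 were highest in XEN cells, Rarg in ESCs, and Cyp26a1 was at 6.75 and 4.70 TPM in the day 7 TSC libraries.

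The next question was which genes differed between normoxia and the hypoxia days in TSCs. Cyp26a1 held 66.7 and 43.3 TPM in the normoxic libraries, 31.4 and 75.5 TPM on day 2, and 6.75 and 4.70 TPM on day 7. Both day 7 libraries lay under all 4 others, while normoxia and day 2 overlapped. The log2 fold change was -3.14 (SE 0.44) from normoxia to day 7 and -3.0 from day 2 to day 7, and neither has a p, since the first selected the gene family and the second uses the same day 7 libraries. They rested on 1431 and 981 reads in normoxia, 788 and 1876 at day 2 and, at day 7, 162 and 114. By day 2 the difference from normoxia was -0.14 (SE 0.44, 95% interval -1.17 to 0.89, limma adjusted p = 0.903). The deposited TPM showed the same order, at 113 and 71.4 in normoxia, 52.9 and 126 at day 2 and, at day 7, 11.1 and 7.37.

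From normoxia to day 7 in TSCs, 0.51% of all 13518 genes were called. This comparison chose the family, so whether Cyp26a1 was among them is not given. Its log2 fold change ran from -3.45 to -2.84 over 16 alternative fits. The median log2 fold change of the 8 was -0.19 and that of all genes was -0.14. For the other 7 genes the values from that comparison are given without p. Aldh1a2 was at 4.09 and 3.87 TPM in normoxia and 3.47 and 2.60 on day 7 (log2 fold change -0.35, SE 0.34), and Cyp26b1 at 1.80 and 1.26 against 1.95 and 1.96 (0.29, SE 0.33). In neither gene did the day 7 libraries overlap normoxia, yet both differences were near their SE. Dhrs3 was at 5.97 and 3.05 TPM in normoxia, 4.67 and 4.77 at day 2 and, at day 7, 2.32 and 3.21 (-0.57, SE 0.37), with overlap with normoxia and none with day 2. Rarg differed by -0.03 (SE 0.21).

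From normoxia to day 2, none of the 8 genes was called in TSCs (0.118% of all genes were). An unadjusted limma p under 0.05 was reached by 1795 of all 13518 genes and by none of the 8. On the recovered reads limma-voom also called none of the 8. Their adjusted p-values ran from 0.641 for Stra6 to 0.997 for Cyp26b1. The comparison of day 2 with day 7 shares the day 7 libraries with the one that chose the family. In it 14.5% of all genes were called, and none of the 7 family genes other than Cyp26a1. Of those calls 1601 were lower and 362 higher, or 941 and 693 when libraries were scaled by median ratios, and the median of all genes was -0.19 against 0.05 for the 8. Stra6 had the lowest adjusted p-value of the other 7. It held 1.43 and 8.34 TPM in normoxia, 0.786 and 3.27 at day 2 and, at day 7, 5.87 and 8.42, so that day 7 lay above day 2 but overlapped normoxia. Its difference between the days was 1.78 (SE 0.78, 95% interval -0.05 to 3.60, limma adjusted p = 0.199). It passed in 4 of 16 alternative fits, at the lowest with adjusted p = 0.0574, and its range over those fits was 1.0 to 2.55. Dhrs3 differed between the days by -0.69 (SE 0.37, 95% interval -1.56 to 0.18, limma adjusted p = 0.282).

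Crabp1, Crabp2 and Stra6 were the genes whose replicates disagreed most in TSCs. Crabp1 held 163 and 33.2 TPM in normoxia, 63.9 and 90.1 at day 2 and, at day 7, 75.7 and 43.2. Crabp2 held 9.44 and 3.38 TPM in normoxia, 2.75 and 8.45 at day 2 and, at day 7, 4.63 and 11. The first normoxic library was thus the highest for Crabp1, and no condition stood apart for either gene. The 12 fibroblast markers summed to 2300 and 447 TPM in normoxia, 319 and 1314 at day 2 and, at day 7, 686 and 478, so that the first normoxic and the second day 2 library had the highest sums, as they had for Crabp1. Col1a1, a fibroblast collagen, was at 689 and 409 TPM in those libraries and at 65.8 to 113 in the other 4. The part of feeder RNA in the Crabp1 values was not tested. Without the first normoxic library, the Crabp1 log2 fold change from normoxia to day 7 was 0.78, and without the second day 7 library 0.04, against -0.36 with all libraries. Cyp26a1 too was highest in the first normoxic and the second day 2 library (66.7 and 75.5 TPM). It was at 31.4 TPM in the library with the lowest fibroblast sum and at 6.75 and 4.70 TPM in the day 7 libraries. The day 7 sums exceeded that of the second normoxic library (43.3 TPM of Cyp26a1). The part of feeder RNA in the Cyp26a1 values was not tested either.

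**Figure D2:**
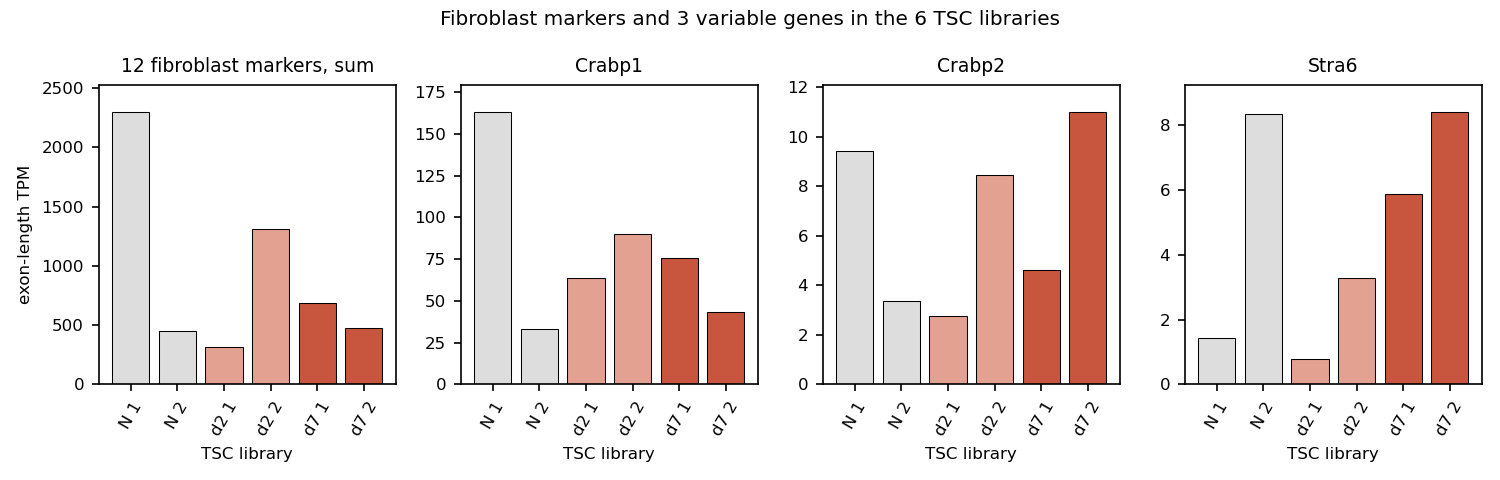
Exon-length TPM in the 6 TSC libraries (N, normoxia; d2 and d7, hypoxia days; 1 and 2, replicates), as bars from 0, for the sum of 12 fibroblast markers and for Crabp1, Crabp2 and Stra6. The fibroblast sum and Crabp1 were both highest in the first normoxic library (2300 and 163 TPM), while Stra6 was low there (1.43 TPM).

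The genes most like Cyp26a1 over the 6 TSC libraries were then listed, by Pearson's r of log2(TPM + 0.5) with 13517 other genes. They were Eomes (0.996), Bmp8b (0.992), Cdx2 (0.992), Mpped2 (0.991) and Socs2 (0.99). Eomes and Cdx2 encode transcription factors that define the trophoblast stem cell state, and Bmp8b a secreted BMP ligand. These genes were picked for their likeness over all 6 libraries, among them the day 7 libraries that chose Cyp26a1, so their values describe the pattern only. Cdx2 held 126 and 115 TPM in normoxia, 79.2 and 153 at day 2 and, at day 7, 37.0 and 34.0, with the first day 2 library under the second as for Cyp26a1. Eomes held 263 and 223 TPM, then 162 and 283, then 86.8 and 67.2. The neighbour Cyp26c1 stood at place 27 (r = 0.978), with 1.43 and 1.0 TPM in normoxia, 0.859 and 1.92 at day 2 and, at day 7, 0.379 and 0.187. Of the other 7 family genes, Dhrs3 was nearest (r = 0.744, place 1874) and Stra6 farthest (r = -0.526).

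**Figure D3:**
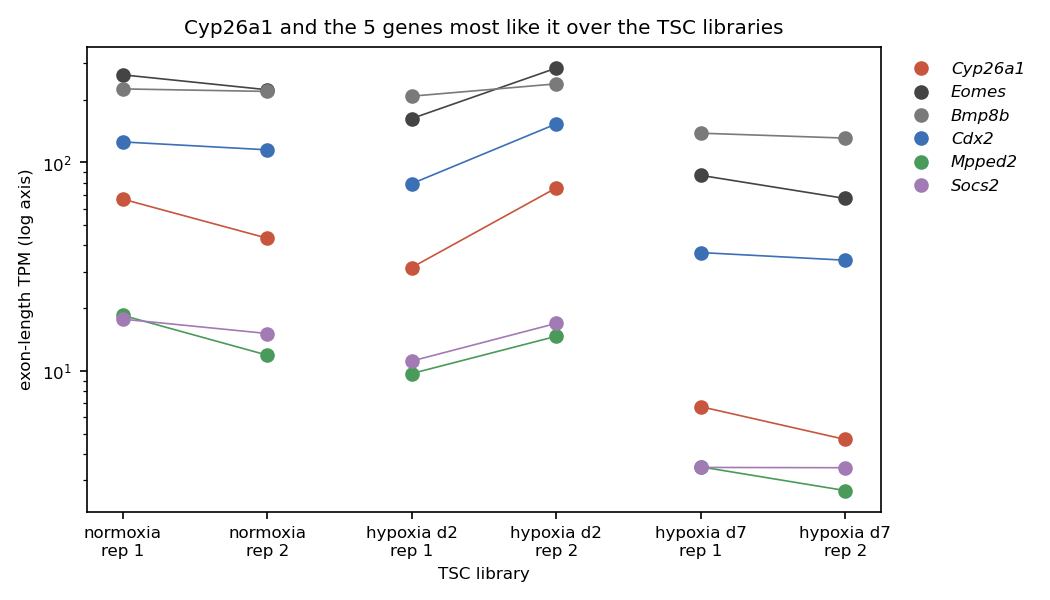
Exon-length TPM on a log axis in the 6 TSC libraries for Cyp26a1 and the 5 genes with the highest Pearson's r to it, with lines joining the 2 replicates of a condition. All 6 genes were lowest in both day 7 libraries, and all had less in the first than in the second day 2 library.

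Some other markers of the TSC state were also lower on day 7. Of 9 TSC markers, 2 fell from normoxia to day 7 by limma (Elf5, log2 fold change -1.75, adjusted p = 0.0327, and Esrrb, -1.71, adjusted p = 0.0679), beside 0.51% of all genes. With 1 of the day 7 libraries left out, whichever it was, 0 genes of the TSC table passed against normoxia, and with the replicate block 8 did, Elf5 and Esrrb not among them. From day 2 to day 7, where 14.5% of all genes passed (1601 lower, 362 higher), 5 of the markers fell (Cdx2, Eomes, Elf5, Esrrb and Bmp4) and 1 rose (Krt8, a keratin). Between the days, 21, 80 and 0 of all genes passed without the first day 2 library, the first day 7 library and the second day 7 library. Hand1, Krt18 and Tfap2c did not pass in either comparison. The 9 markers together summed to 33640 and 37170 TPM on day 7 against 18840 and 35180 in normoxia. Most of that sum was Hand1, Krt8 and Krt18 (9774, 9455 and 13740 TPM in the first day 7 library), so it does not show the markers that fell. Of 10 markers of differentiated trophoblast, 6 were listed, and Tpbpa, Synb, Prl3b1 and Ctsq were not. They summed to 371 and 958 TPM in normoxia, 432 and 645 at day 2 and, at day 7, 1016 and 1077, most of it Cdkn1c, a cell cycle inhibitor (361 to 1047 TPM). Stra6 was high and low in the same libraries, with its 3 highest values in the 3 libraries of highest sum. From day 2 to day 7, Prl3d1, a giant cell hormone, rose (log2 fold change 2.52, limma adjusted p = 0.0404) and Gcm1, a syncytiotrophoblast factor, fell (-1.85, adjusted p = 0.0952). The part of a change in cell state in the Cyp26a1 and Stra6 values was not tested.

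In ESCs, none of the 7 listed genes was called in any comparison by limma. The shares of all 13578 genes called were 0% from normoxia to day 2 and 0.935% from normoxia to day 7. From day 2 to day 7 the share was 0.214%. In this order, an unadjusted limma p under 0.05 was reached by 0, 1 and 2 of the 7, beside 786, 1224 and 648 of all genes. With 1 library left out at a time, the number of genes called ran from 0 to 663 (663 without the first day 2 library), from 10 to 432 and from 1 to 284 in the same order, the highest each time without that library. On day 2, limma-voom called 6 genes, none of them among the 7. Cyp26a1 held 2.44 and 1.58 TPM in normoxia, 3.42 and 1.1 at day 2 and, at day 7, 4.93 and 3.59, with both day 7 libraries above the other 4. Its difference from normoxia to day 7 was 0.93 (SE 0.40, 95% interval 0.05 to 1.81, limma adjusted p = 0.531), the opposite sign to TSCs, and whether the cell types differ was not tested. It passed in 2 of 15 alternative fits, and the adjusted p-values ran from 0.0954 to 1.0.

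Rarg in ESCs held 352 and 302 TPM in normoxia, 375 and 379 at day 2 and, at day 7, 276 and 303. Day 2 lay above both other conditions, and the decrease of 0.38 in log2 TPM to day 7 had an adjusted p of 0.7 by limma (SE 0.13, 95% interval -0.67 to -0.10). The intervals of Rarg against normoxia, -0.08 to 0.49 on day 2 and -0.46 to 0.11 on day 7, lay within the 1.5-fold limit (0.59 in log2) in both directions. Dhrs3 held 0.538 and 0.758 TPM in normoxia, 1.09 and 1.05 at day 2 and, at day 7, 0.906 and 1.40. All 4 hypoxic libraries (38 to 48 reads each) lay above normoxia (15 and 29 reads), and the difference on day 7 was 0.52 (SE 0.25, limma adjusted p = 0.61). Crabp1, Crabp2, Aldh1a2 and Stra6 differed by at most 0.13 in log2 from normoxia on either day. The 95% interval of Crabp2 on day 7 was the widest of these at -0.65 to 0.76.

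In XEN cells, none of the 5 listed genes was called in any comparison, and none reached an unadjusted p under 0.05. The shares of all 11538 genes called were 0%, 0.121% and 0.052% in the same order. An unadjusted limma p under 0.05 was reached by 892, 1072 and 1378 of all genes. The limma-voom fit called 0, 5 and 2 genes and none of the 5. With 1 library left out at a time, the number of genes called ran from 0 to 95 (95 without the first normoxic library), from 1 to 254 (254 without the second) and from 0 to 135 (135 without the second day 7 library). Cyp26a1 held 1605 and 1084 TPM in normoxia, 1722 and 2019 at day 2 and, at day 7, 1239 and 1543. Both day 2 libraries lay above the other 4, by 0.50 in log2 over normoxia (SE 0.25, 95% interval -0.08 to 1.08, limma adjusted p = 0.684). On day 7 the difference from normoxia was 0.07 (95% interval -0.51 to 0.65, adjusted p = 0.957). Stra6 held 140 and 182 TPM in normoxia, 223 and 194 at day 2 and, at day 7, 175 and 219, and its difference on day 2 was 0.38 (SE 0.19, limma adjusted p = 0.684). Dhrs3 (11.9 and 10.4, then 10.2 and 10.3, then 9.44 and 13.7 TPM) differed by at most 0.14 in log2 between any 2 conditions. Rarb held 1.79 and 4.74 TPM in normoxia, 2.41 and 3.72 at day 2 and, at day 7, 4.44 and 4.06, with a spread in normoxia that covered every other library. Rarg, at 2.76 and 5.08 TPM in normoxia and 3.75 and 6.32 on day 7, also overlapped (0.34, SE 0.36).

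**Figure D4:**
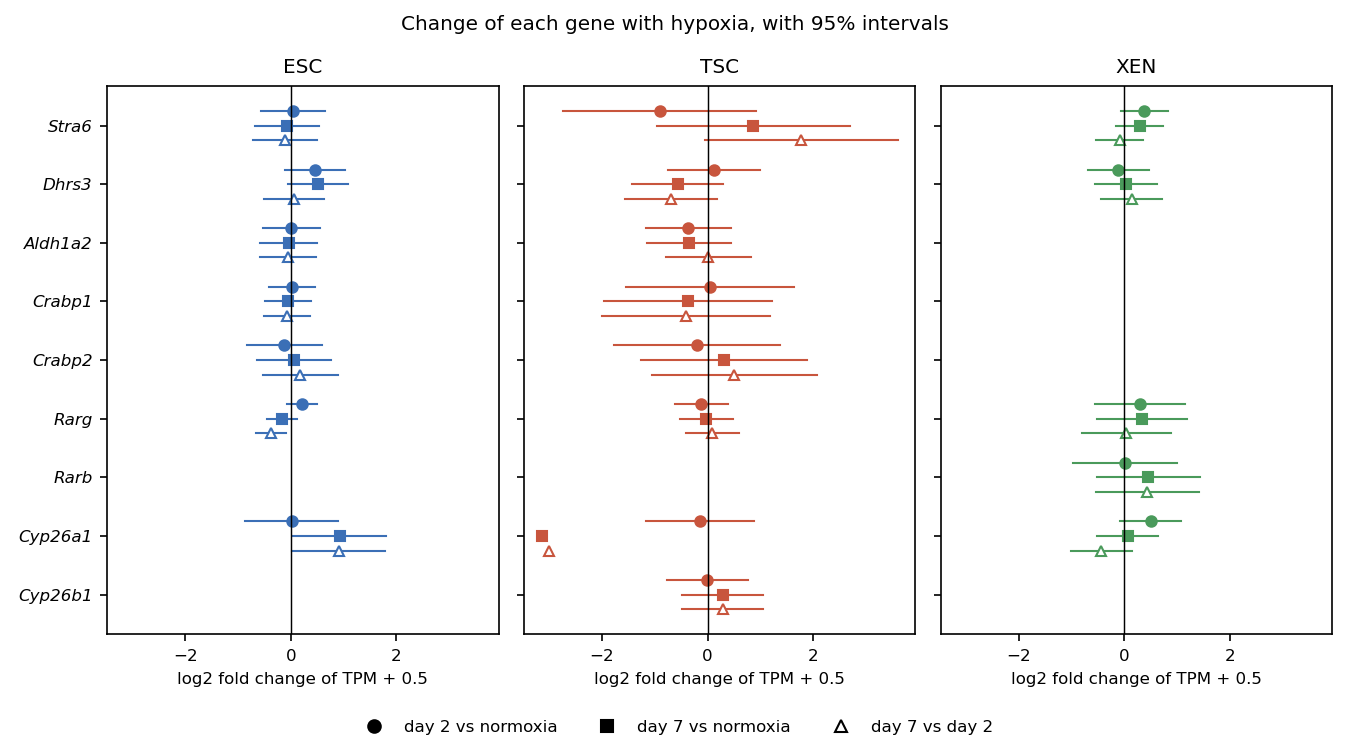
Log2 fold change (difference of log2 of TPM + 0.5) of each gene in ESCs, TSCs and XEN cells, with lines for 95% limma intervals. Circles are day 2 against normoxia, squares day 7 against normoxia and open triangles day 7 against day 2. Cyp26a1 in TSCs at -3.14 and -3.0 is drawn without an interval because it chose the family.

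The rest of the pathway was described with 3 wider lists: 30 genes of retinoid metabolism and transport, 19 receptors and cofactors, and 27 target genes, of which 50 were in the ESC table, 57 in that of TSCs and 44 in that of XEN cells. In TSCs none of the 57 was called against normoxia on day 2 or day 7, and limma-voom called none. On those days 12 and 11 of the 57 had an unadjusted limma p under 0.05, beside 1795 and 1319 of all 13518 genes. From day 2 to day 7 in TSCs, 12 of the 57 passed (21.1%, against 14.5% of all genes), 4 higher and 8 lower, and their median was -0.15 beside -0.19 over all genes. The count of 12 rested on single libraries: it was 0 without the first day 2 library or without either day 7 library, where 21, 80 and 0 of all genes passed, and 13 without any of the others. With median-ratio scaling 8 of the 12 passed, and Rec8, Ncoa3, Rxrb and Cyp26c1 did not. In ESCs 2 of 50 passed from normoxia to day 7 (4%, against 0.935%) and none in the other 2 comparisons. There 6 and 6 had an unadjusted limma p under 0.05, beside 786 and 648 of all 13578 genes. Of the ESC calls 0 were left without either normoxic library or the first day 7 library, and 6 genes passed without either day 2 library. In XEN cells none of 44 passed in any comparison (0%). An unadjusted limma p under 0.05 was reached by 3, 5 and 7 of them, beside 892, 1072 and 1378 of all 11538 genes. In the ESC and XEN comparisons with none by limma, limma-voom called none either.

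Among metabolism and transport genes in TSCs, 1 of 15 rose from day 2 to day 7 and 4 fell (33.3%, beside 14.5% of all genes, most of them lower). Rdh10, which makes retinal from retinol, rose, at 15.6 and 18.4 TPM on day 2 and 45.9 and 29.0 on day 7 (log2 fold change 1.08, limma adjusted p = 0.0588). Rbp4, the retinol carrier, fell from 20.8 and 19.6 to 2.95 and 4.63 TPM (-2.29, adjusted p = 0.0169 by limma). Fabp5, a fatty acid carrier that can bring retinoic acid to PPARD, fell from 50.0 and 40.2 to 11.2 and 10.9 TPM (-1.98, adjusted p = 0.016 by limma). Rdh11 fell by 0.97 and Cyp26c1 by 1.22 on the log2 scale (limma adjusted p = 0.0317 and 0.0993). For 4 of these 5 genes normoxia lay between the 2 hypoxic days: Rbp4 was at 7.64 and 9.59 TPM, Fabp5 at 30.0 and 23.3, Rdh10 at 26.3 and 26.7, and Rdh11 at 52.8 and 55.4. Cyp1b1 had the largest difference from normoxia on day 7 in TSCs (-1.41, SE 1.06) and was at 8.61 and 10.1 TPM in the first normoxic and the second day 2 library, against at most 1.0 in the other 4, the same pair in which the fibroblast sum was highest. In ESCs Adh4, an alcohol dehydrogenase, rose from 1.16 and 1.64 TPM in normoxia to 4.38 and 4.50 on day 7 (1.39, limma adjusted p = 0.0444), with 3.05 and 4.12 on day 2. Rbp4 differed by -0.84 in ESCs, and Aldh1a3 and Adh7 by -1.20 and 0.86 in XEN cells, without passing.

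Among receptors and cofactors in TSCs, 1 of 18 rose from day 2 to day 7 and 2 fell (16.7%, near the 14.5% of all genes). Ppard, a nuclear receptor that also takes retinoic acid, rose from 47.1 and 53.5 to 121 and 91.6 TPM (1.06, limma adjusted p = 0.0371). The coactivator Ncoa3 fell by 1.07 and Rxrb, a partner of the retinoic acid receptors, by 0.78 on the log2 scale (adjusted p = 0.0986 and 0.0496 by limma). None of the 17 listed in ESCs or in XEN cells passed. Their largest differences from normoxia on day 7 were -0.52 for Nr2f6 and -0.34 for Ncor1 in ESCs, and 0.48 for Rxra in XEN cells. Rxra in XEN cells rested on 4 to 60 reads per library.

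Among target genes in TSCs, 2 of 24 rose and 2 fell from day 2 to day 7 (16.7%, again near the 14.5% of all genes). Tgm2, a transglutaminase, rose from 145 and 398 to 1391 and 1098 TPM (2.36, limma adjusted p = 0.0398), with 403 and 710 in normoxia. Zfp703, a repressor, rose from 53.8 and 96.0 to 205 and 188 TPM (1.44, limma adjusted p = 0.0346) but held 172 and 159 in normoxia. Rec8, a meiotic cohesin, and Meis1, a homeobox factor, fell by 1.52 and 1.46 on the log2 scale (limma adjusted p = 0.0778 and 0.0573). Cdx1 had the largest difference from normoxia on day 7 (1.62) and did not pass (limma adjusted p = 0.148). All 4 hypoxic libraries lay above normoxia, at 12.2 to 22.2 against 3.91 and 3.66 TPM. In ESCs Zfp703 rose from 0.464 and 0.654 TPM in normoxia (15 and 29 reads) to 3.23 and 2.15 on day 7 (1.58, limma adjusted p = 0.038). Rarres1 differed there by 0.96 without passing. In XEN cells Hoxa3 (0.85) and Rarres1 (-0.77) had the largest differences on day 7 and did not pass. They rested on 8 to 63 and 2 to 42 reads per library.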

How the data were processed

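RNA-seq libraries of ESCs, TSCs and XEN cells (2 per condition) were sequenced as paired ends by the authors. Per the submitters' processing notes and the study's methods, reads were trimmed with cutadapt 2.4, aligned to mm10 with STAR 2.7.5a and counted with featureCounts. Protein-coding genes over 0.4 CPM in at least 2 of 6 libraries were kept, and the authors deposited TPM for each cell type on its own. Whether strand was used in counting is not given in the sources used here.

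With GENCODE M21 gene lengths from start to end, 98.7 to 98.9% of the values in a library were within 0.05 of a whole multiple of 1 read, against 9.48 to 10.5% with exon lengths. TPM were therefore recomputed with summed exon lengths. Fits used limma 3.58.1 (eBayes with trend) on log2(TPM + 0.5), 1 fit per cell type over its 6 libraries, with no covariate. The fit was tested on simulated data. In the TSC comparison of day 7 with normoxia, it recovered 97.5% of 200 genes changed 4-fold among 13518 at a dispersion of 0.01. It also called 18 unchanged genes. The simulation gave all genes the same dispersion, so this share does not give the power in the real libraries.

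The family, the wider lists, the marker lists and the tests were chosen with earlier results of these data known, and the promoter motifs after the windows had been seen. Named were all 9 genes, every wider-list gene that passed and, per list and cell type, the 2 with the largest change on day 7 against normoxia, the 5 genes most like Cyp26a1, and markers. Some genes that this rule names are not reported here. Promoters came from RefSeq, with entries for 8 of the 9 genes. The alternatives changed the pseudocount, low-value filter, scaling, replicate block, libraries, trend, threshold or test.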

Additional observations from a re-analysis of the deposited data

Results flagged for a closer look

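Cyp26a1 differed in sign between 2 cell types from normoxia to day 7: both day 7 libraries lay above both normoxic libraries in ESCs (log2 fold change 0.93, limma adjusted p = 0.531) and under them in TSCs (-3.14, the value that chose the family). Rarg differed in sign between ESCs (0.21) and TSCs (-0.11) from normoxia to day 2, again without overlap in either. Dhrs3 differed in sign between ESCs (0.46) and XEN cells (-0.11) from normoxia to day 2. The tables were normalized separately, and none of these differences between cell types was tested. The Rarg and Dhrs3 values are within 2 SE of no change.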

How the results depend on the processing

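Over 60 fold changes (a gene in a cell type and comparison), 24 kept their sign in every alternative, and 65 alternative values moved by more than the SE of the reported value. No called value changed sign. In TSCs the comparison of day 7 with normoxia chose the family, so no count is given for it. From day 2 to day 7 in TSCs, Cyp26a1 set aside, Stra6 passed under the replicate block and with only the 4 libraries compared. In ESCs the count from normoxia to day 7 was 1 with only the 4 libraries compared, and 0 to 1 over the libraries left out, as from day 2 to day 7. The 2 wider-list calls in ESCs on day 7 were 1 with voom. Over the libraries left out, an alternative chosen after seeing the data as was median-ratio scaling for these lists, wider-list counts ran from 0 to 6 in ESCs from normoxia to day 7, 0 to 2 from normoxia to day 2 and 0 to 1 from day 2 to day 7. They ran from 0 to 13 in TSCs from day 2 to day 7, and in XEN cells from 0 to 1 from normoxia to day 7 and 0 to 2 from day 2 to day 7. The causes were not tested. The deviations of same-numbered libraries correlated from -0.48 to 0.29 over 9 pairs of groups, over 0.1 in some pairs but in no cell type in all, so the replicate block pairs libraries by number only. It changed no other count of family genes. Exchanging the day 2 numbers in TSCs gave a count of 0 with the block from normoxia to day 2.

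With 2 libraries a group, the spread rests on few values. The share of all genes whose groups do not overlap was not counted, so a lack of overlap is a description only. Genes near 0.5 TPM rest on few reads, and the pseudocount shrinks their changes. Among them are Stra6, Dhrs3 and Zfp703 in ESCs, and Rxra, Hoxa3 and Rarres1 in XEN cells. A gene missing from a table fell under the authors' filter or is not in what was analysed here, so no level is given.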
